A study of Phrynocephalus vlangalii with 2 samples.

Results

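Prostaglandins and thromboxane are short-lived lipid signals made from arachidonic acid, which phospholipases release from membranes. Cyclooxygenases, named prostaglandin-endoperoxide synthases, turn it into the shared intermediate prostaglandin H2, and separate synthases turn that into prostaglandin D2, E2, F2, prostacyclin or thromboxane A2. Each product acts on its own G protein-coupled receptors, and 15-hydroxyprostaglandin dehydrogenase starts the breakdown. In mammals these lipids set the tone of blood vessels and airways, platelet clotting, fever and inflammation.

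The members described here are all assembled genes of the toad-headed lizard Phrynocephalus vlangalii whose annotation contained the words prostaglandin or thromboxane. They were 27 of 58458 assembled genes, under 14 of 4819 annotation names. The family was picked because prostaglandin-H2 D-isomerase was far lower in Madoi, so every ratio below is a description with no test. RNA came from adults of the populations Madoi and Maqu, with 1 library each, pooled from liver, lung, heart and muscle. The number of animals per pool is not given in the sources used here, and a pool of 4 tissues cannot show in which tissue a gene was read. In such a pool, fewer cells of a type and less RNA per cell cannot be told apart.

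The libraries held 63636521 estimated reads for Madoi and 66401051 for Maqu. Of the markers looked for, 6 of 6 liver, 3 of 5 lung epithelium, 4 of 5 heart and 3 of 4 skeletal muscle markers had an annotation name, and 0 of these names were at 0 reads in either library. Levels are the authors' RPKM, reads per kilobase of transcript scaled by library size. Differences are log2 ratios of reads, Madoi over Maqu, with a 95% counting interval that covers counting error only. A gene was called higher or lower at a difference of 2-fold or more with an interval excluding equality and at least 10 reads in both libraries together. Each population has 1 library, so differences have no replicate check and compare these libraries, not the populations.

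All 27 assembled genes had at least 10 reads. By the rule, 6 were called higher in Madoi, where 28.5% of all assembled genes were, and 7 lower, where 10.7% were. The other 14 were called neither. Of the 6 higher ones, 3 had 0 reads in Maqu and are given apart below, because whether they are lizard transcripts was not tested. The 23 assembled genes read in both libraries without an extreme ratio, within a log2 ratio of 5 either way, held 3 higher and 6 lower ones, beside 12.1% higher and 12.5% lower over all such assembled genes. Their median log2 ratio was -0.48, and that of all such assembled genes -0.02. Of the 6 lower ones, 3 were fragments under the name prostaglandin-endoperoxide synthase 1, so 1 gene may be counted more than once. Only 23.8% of all such assembled genes had an annotation, which every member has.

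**Figure D1:**
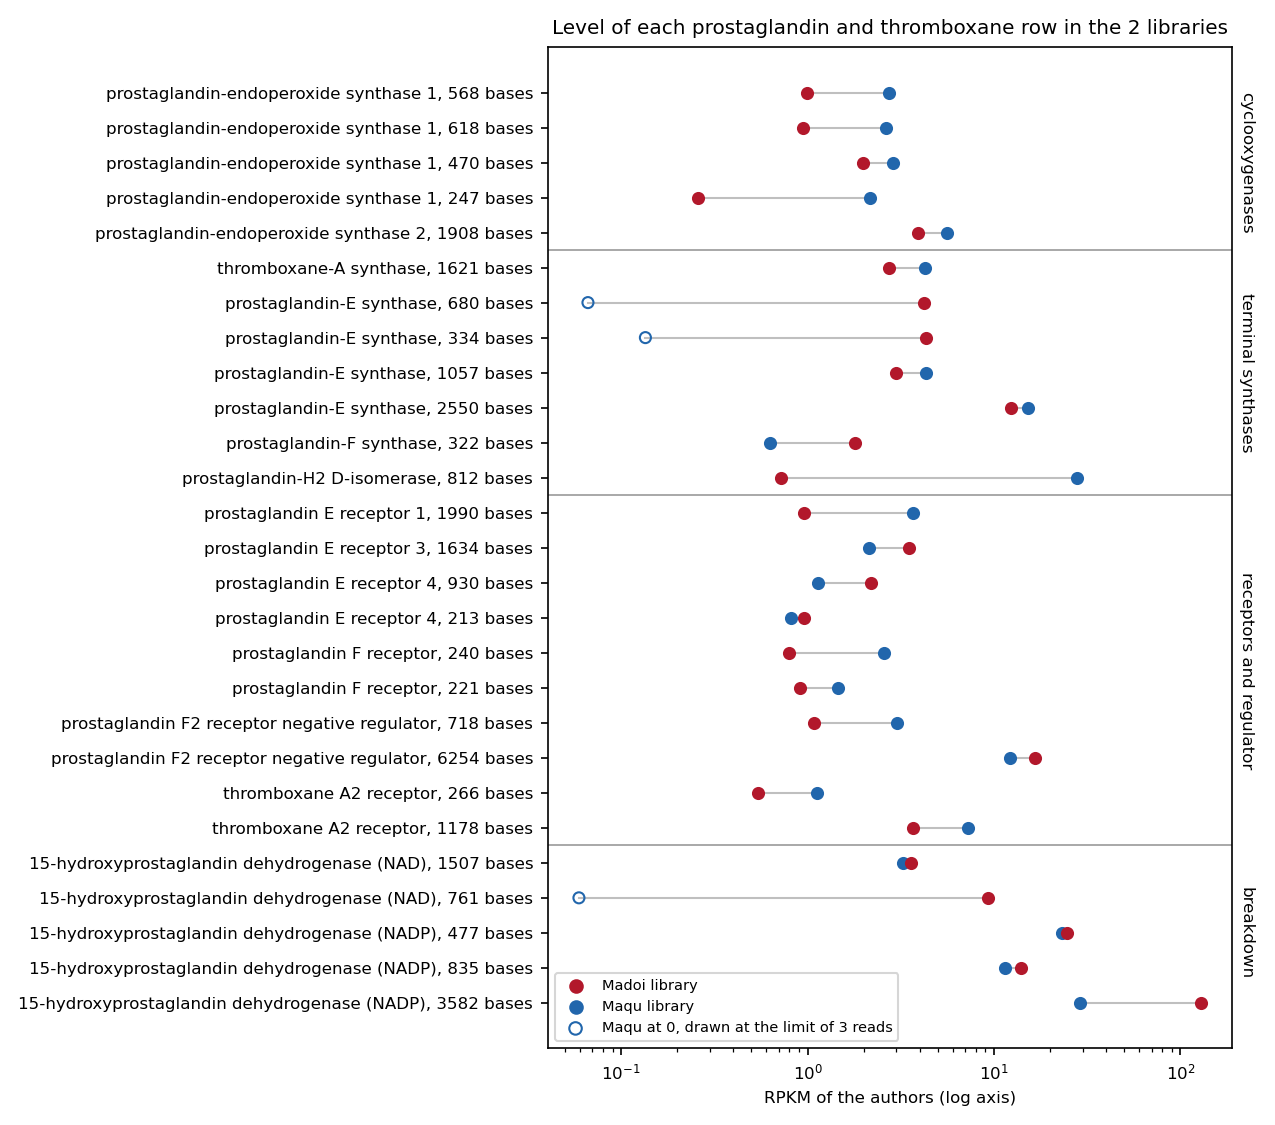
RPKM of the authors (log axis) for each of the 27 assembled genes, Madoi in red and Maqu in blue, grouped by role and labelled with the assembled length. Prostaglandin-H2 D-isomerase lay at 0.72 in Madoi and 27.72 in Maqu, and 3 assembled genes at 0 in Maqu are drawn as open circles at the limit of 3 reads.

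Both cyclooxygenase names had fewer reads in Madoi, and only the first passed the 2-fold rule. Prostaglandin-endoperoxide synthase 1, the form that most tissues and platelets of mammals make at a steady rate, had 124 Madoi and 301 Maqu reads, a log2 ratio of -1.17 (-1.48 to -0.86). Its reads came from 4 assembled genes of 247 to 618 bases, which together span 1903 bases. All 4 had a ratio below 0, and 3 were called lower, beside 10.7% of all assembled genes.

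The largest of the 4 fragments of synthase 1, 618 bases long, stood at 0.95 RPKM in Madoi and 2.63 in Maqu. The 568-base fragment stood at 0.99 and 2.74 RPKM, close to the first in both libraries. The 470-base fragment, called neither, stood at 1.99 and 2.89 RPKM. The 4 fragments had like levels in Maqu, from 2.15 to 2.89 RPKM, and spread more in Madoi, from 0.26 to 1.99. The lowest of these, 247 bases long, rested on 3 Madoi and 26 Maqu reads, and its interval ran from -5.37 to -1.30. Whether the fragments are pieces of 1 gene was not tested, but 2 of them carry the same assembly component number.

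Prostaglandin-endoperoxide synthase 2, the form that inflammation induces in mammals, came from 1 assembled gene of 1908 bases. It had 483 Madoi and 719 Maqu reads, or 3.91 and 5.60 RPKM. Its log2 ratio of -0.46 (-0.63 to -0.30) lay below 0 beyond counting error and did not reach 2-fold. In each library its level was above that of every fragment of synthase 1.

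Prostaglandin-H2 D-isomerase, which makes prostaglandin D2, was the member with the widest difference among those with reads in both libraries. Mammals have unrelated enzymes for this step. The lipocalin type is secreted, carries small fatty molecules, and is abundant in the membranes around the brain, and the haematopoietic type belongs to the glutathione transferases and works in mast cells and other immune cells. The deposited gene ontology terms of the lizard row were extracellular region, binding, transporter activity and lipid metabolic process. None of them named glutathione or prostaglandins. Its role in making prostaglandin D2 thus rests on its annotation name and its deposited pathway, arachidonic acid metabolism.

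The D-isomerase came from 1 assembled gene of 812 bases, with 36 Madoi and 1432 Maqu reads. Its level was 0.72 RPKM in Madoi and 27.72 in Maqu. This placed it 25th of the 27 in Madoi and 2nd in Maqu, just under the NADP-dependent dehydrogenase at 28.92 RPKM. The log2 ratio was -5.19 (-5.72 to -4.73), 36.9-fold lower in Madoi. The authors' deposited table gave it a log2 fold change of -5.27 with an FDR of 1.42e-05, from a comparison of these same libraries.

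Among 26197 assembled genes that reached 10 reads in Madoi and in Maqu and 100 over both, 7 had a lower ratio than the D-isomerase. This place is a description, since the family was picked for this ratio. The limit of 10 Madoi reads also leaves out genes nearly absent from Madoi, such as carboxypeptidase A1 with 8 Madoi and 7651 Maqu reads. Of these 26197, 8809 had an annotation, and 5 of those lay lower. Seen by level, 5540 assembled genes had Maqu reads within 2-fold of its 1432, and 17 of them had a lower ratio. It was 1 of 389 assembled genes read almost only in Maqu (0 reads in Madoi or a log2 ratio of -5 or below), of which 30 had an annotation. These 389 held 0.169% of the Maqu reads.

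Marker lists of other cells stood as follows beside this difference, and their part in it was not tested. Of the exocrine pancreas list, 4 of 5 markers had an annotation name, with summed levels of 52.4 CPM (reads scaled to library size) in Madoi and 336 in Maqu. Carboxypeptidase A1, with 8 Madoi and 7651 Maqu reads, carboxypeptidase B, with 11 and 350, and chymotrypsin C, with 371 and 13721, were called lower, while chymotrypsin was called higher with 2890 and 991. The pancreas calls depend on copies read almost only in 1 library: without them carboxypeptidase A1 has no value, chymotrypsin moves from 1.65 to -4.58 and chymotrypsin C from -5.10 to -0.23, which leaves 2 lower and 0 higher. The brain and meninges list went the other way, with 26.3 CPM in Madoi and 0.918 in Maqu, but only 2 of its 7 markers had an annotation name. The mast cell list, with 2 of 4 markers, stood at 3.45 and 3.27 CPM. Of the tissues in the pool, the liver list summed to 958 CPM in Madoi and 1870 in Maqu, with 2 markers called lower and 1, apolipoprotein A-I, called higher at 1.23.

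The lung epithelium list summed to 253 and 387 CPM, with 2 markers called lower. The heart list was near level at 115 and 112 CPM, with 2 markers called higher, and the skeletal muscle list stood at 8830 and 9880 CPM with 0 called. The leukocyte list stood at 55.6 and 50.9 CPM, with 1 called higher. The lists thus did not share a direction.

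**Figure D2:**
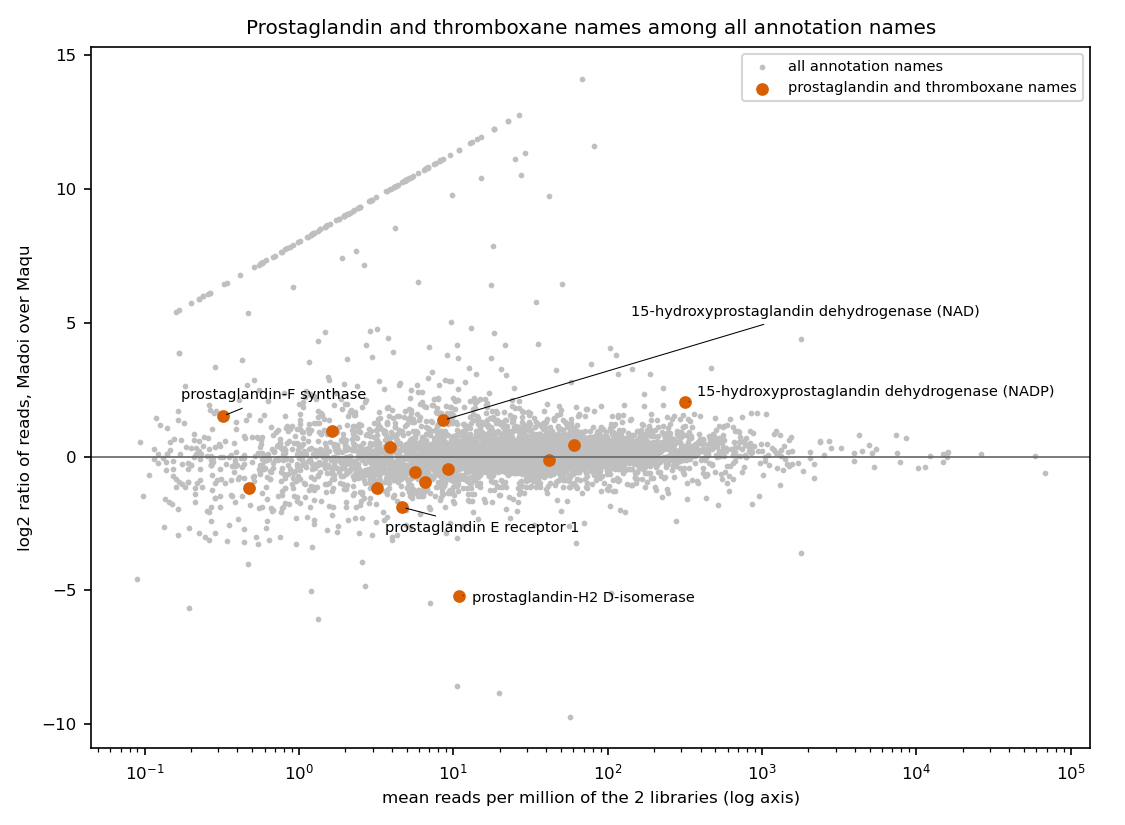
Log2 ratio of reads, Madoi over Maqu, against the mean CPM of both libraries (log axis) for all annotation names in grey and the 14 prostaglandin and thromboxane names in orange. The D-isomerase at -5.19 lies near the lower edge of the cloud, and the other 13 names lie between -1.89 and 2.04. The grey line of points at the upper left holds names with 0 reads in Maqu, whose ratio depends on the pseudocount.

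The other terminal synthase genes of the family with reads in both libraries differed less, from -0.58 to 1.51 on the log2 scale. Thromboxane-A synthase, the platelet and macrophage enzyme that makes the vessel-constricting thromboxane A2, had 285 Madoi and 461 Maqu reads, or 2.73 and 4.26 RPKM. Its log2 ratio was -0.58 (-0.80 to -0.37), 1.5-fold lower and called neither. Prostaglandin-F synthase, which reduces prostaglandin H2 or D2 to F2 forms, had only 30 Madoi and 11 Maqu reads on a fragment of 322 bases. It was called higher, with a wide interval from 0.52 to 2.70.

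Prostaglandin-E synthase, the last enzyme on the way to prostaglandin E2, was the name of 4 assembled genes whose ontology terms were not all alike. The longest, of 2550 bases, stood at 12.4 RPKM in Madoi and 15.31 in Maqu, with a log2 ratio of -0.25 (-0.33 to -0.17). Its ontology terms included Golgi membrane and protein disulfide oxidoreductase activity. A second form of 1057 bases carried the term glutathione binding, as the inducible microsomal enzyme of mammals does, and stood at 2.97 and 4.33 RPKM with a ratio of -0.49 (-0.75 to -0.22). Both lay slightly below 0 and neither reached 2-fold.

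The remaining prostaglandin-E synthase genes were at 0 in Maqu. They carried the same component number and measured 680 and 334 bases, with 172 and 76 reads in Madoi. Their levels in Madoi were alike, at 4.22 and 4.34 RPKM. By the lower ends of their counting intervals, they were at least 49.8-fold and at least 21.7-fold higher. Summed over all 4 copies the name had a ratio of -0.12 (-0.20 to -0.04), and -0.27 (-0.35 to -0.19) without these copies. The copy of 680 bases carried the same ontology terms as the gene of 2550 bases. That of 334 bases shared its term protein disulfide oxidoreductase activity.

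**Figure D3:**
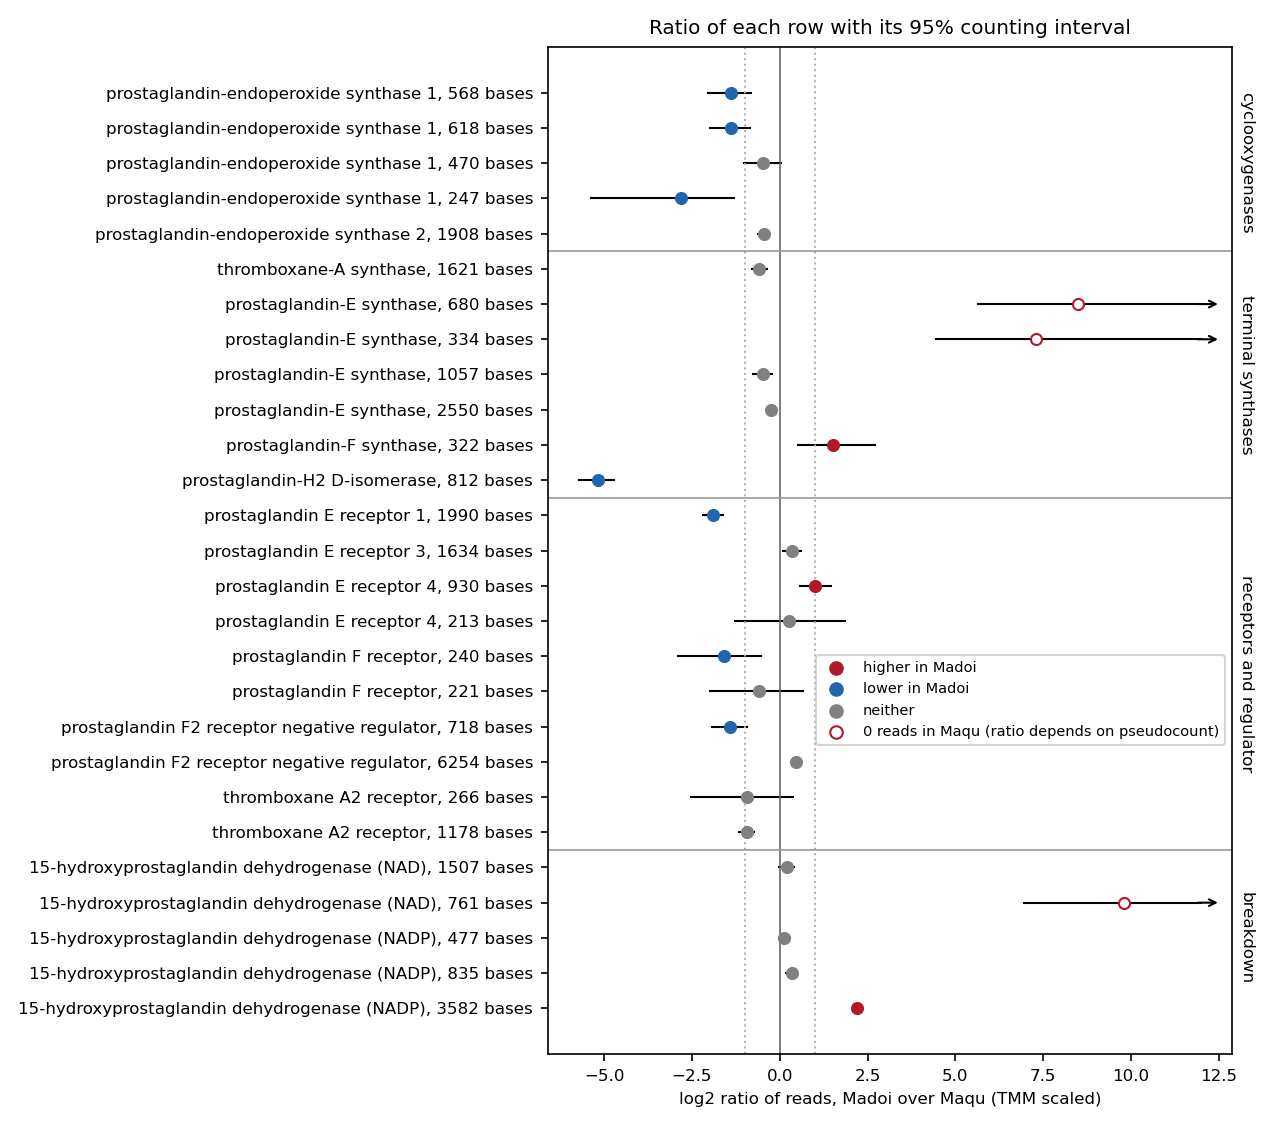
Log2 ratio of reads, Madoi over Maqu, for each of the 27 assembled genes with its 95% counting interval, coloured by the call, with dotted lines at 2-fold. All 5 cyclooxygenase genes lie left of 0, with 3 called lower, beside 10.7% of all assembled genes. All 5 genes grouped by name as breakdown enzymes lie right of 0, with 2 called higher, beside 28.5% of all assembled genes. Arrows mark the intervals of the 3 genes with 0 reads in Maqu, which have no upper end.

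The receptors did not share a direction. Prostaglandin E receptor 1, which raises cell calcium in mammals, had 123 Madoi and 495 Maqu reads, or 0.96 and 3.69 RPKM. Its log2 ratio of -1.89 (-2.20 to -1.61), 3.73-fold lower in Madoi, was the lowest among receptors. Its deposited ontology term was prostaglandin F receptor activity, so the files do not settle which of these receptors the transcript encodes. The receptor named prostaglandin F receptor had only 18 Madoi and 45 Maqu reads over 2 fragments, a ratio of -1.19 (-2.09 to -0.39), called lower. Its fragment of 240 bases, with 9 and 30 reads, was called lower at -1.58 (-2.89 to -0.52). The fragment of 221 bases, with 9 and 15 reads, was called neither at -0.60 (-2.00 to 0.66).

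Prostaglandin E receptors 3 and 4 had ratios above 0. Receptor 4, which raises cyclic AMP and relaxes vessels in mammals, had 136 Madoi and 76 Maqu reads, with a ratio of 0.94 (0.53 to 1.37), called neither. Its longer fragment, of 930 bases, had 127 and 68 reads and was just over the 2-fold line at 1.01 (0.58 to 1.46). With libraries scaled by their totals alone or with a pseudocount of 5 reads, 5 and not 6 assembled genes were called higher. Receptor 3, which lowers cyclic AMP, had 273 and 233 reads and a ratio of 0.34 (0.08 to 0.60). Its authors' RPKM of 3.50 in Madoi and 2.14 in Maqu were further apart than its reads. It was 1 of only 2 members whose deposited length and effective length differ.

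Thromboxane A2 receptor, through which thromboxane constricts vessels and activates platelets, had 280 Madoi and 579 Maqu reads. Its main assembled gene, of 1178 bases, stood at 3.67 and 7.30 RPKM, the highest level of the 5 prostanoid receptors in both libraries. The ratio of -0.94 (-1.15 to -0.73), 1.92-fold lower, fell just short of the 2-fold rule. As names, thromboxane-A synthase, its receptor and both cyclooxygenases had ratios below 0 with intervals excluding 0, but only prostaglandin-endoperoxide synthase 1 was called lower. Of the 14 member names, 8 had a ratio below 0. Over all 4819 names, 1991 had a ratio below 0, a count that does not ask for an interval excluding 0. Whether the names of this arm differ together was not tested. By gene, the intervals of the 266-base receptor gene (-2.53 to 0.39) and the 470-base fragment of synthase 1 (-1.01 to 0.03) included 0.

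The prostaglandin F2 receptor negative regulator, a membrane protein that binds the F receptor in mammals, was the name of 2 unlike assembled genes. The short one, of 718 bases, had 47 Madoi and 136 Maqu reads and was called lower at -1.41 (-1.93 to -0.93). The long one, of 6254 bases, had 4294 and 3374 reads and a ratio of 0.46 (0.39 to 0.52). Its ontology terms were of cell cycle and transcription and not of a membrane protein. The summed ratio of 0.42 rests mostly on this long gene.

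Genes grouped by name as breakdown enzymes all had ratios above 0, where the median over all assembled genes was 0.19. Of these 5 genes, 2 were called higher and 3 neither, beside 28.5% called higher over all assembled genes. The 761-base NAD gene, called higher, had 0 reads in Maqu. The intervals of the 1507-base NAD gene and the 477-base NADP gene, given below, included 0, so a shared rise is not shown. Among those read in both libraries, the largest difference lay in 15-hydroxyprostaglandin dehydrogenase (NADP), an enzyme that also reduces other carbonyl compounds. Its main assembled gene, of 3582 bases, had 30502 Madoi and 7100 Maqu reads. It was the most abundant member in both libraries, at 129.03 RPKM in Madoi and 28.92 in Maqu, and 4.64-fold higher with a log2 ratio of 2.21 (2.18 to 2.25). The authors' deposited table gave it a log2 fold change of 2.16 with an FDR of 2.05e-11.

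The other genes of that name did not share this difference. The fragment of 477 bases stood at 24.52 RPKM in Madoi and 23.23 in Maqu, and that of 835 bases at 13.88 and 11.4 RPKM. Their ratios were 0.13 (-0.02 to 0.29) and 0.34 (0.18 to 0.50), and they carried a component number of their own. All 3 carried the ontology terms 15-hydroxyprostaglandin dehydrogenase (NADP+), prostaglandin-E2 9-reductase and carbonyl reductase (NADPH) activity. The name as a whole, at 31880 and 8362 reads, was 4.11-fold higher in Madoi through its main gene.

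15-hydroxyprostaglandin dehydrogenase (NAD), the enzyme that inactivates most prostaglandin E2 in mammalian lung, was nearly level once its copies were taken apart. The gene of 1507 bases, whose ontology terms name this activity and prostaglandin metabolism, had 346 Madoi and 326 Maqu reads. Its levels were 3.58 and 3.25 RPKM and its ratio 0.20 (-0.03 to 0.42). The copy of 761 bases had 431 Madoi and 0 Maqu reads, at least 126-fold higher by the lower end of its counting interval. Its only activity term was cyclopentanol dehydrogenase, and none of its terms named prostaglandins. The summed ratio of 1.36 (1.17 to 1.55), called higher, comes from that copy.

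The 3 genes at 0 in Maqu belong to a large group. In all, 10930 assembled genes were read in Madoi alone or with a log2 ratio of 5 or more, of which 3212 had an annotation, and they held 8.14% of the Madoi reads. Without copies read almost only in 1 library, 13 names were left, of which 2 were called higher and 3 lower in Madoi. The shares over all names treated alike were 4.17% and 7.05%. With all copies, 3 of 14 names were higher and 4 lower, beside 11.6% and 6.33% of all names.

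The rest of the eicosanoid pathway was taken from a list of 72 symbols, of which 45 had an annotation, under 36 names. The list did not hold 15-hydroxyprostaglandin dehydrogenase (NADP), the member name with the highest ratio, 2.04. Apart from members, 23 names were left, with 4 called higher, 3 lower and 16 neither, beside 11.6% higher and 6.33% lower over all names. Their median log2 ratio was 0.00, beside 0.12 over all names. Without copies read almost only in 1 library, 21 of these names had a median of -0.20, beside -0.02 over all names. Of the 21, 2 were higher and 3 lower, where 4.17% and 7.05% of all such names were.

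Upstream, phospholipase A2, which frees arachidonic acid, was level as a name, with 32484 Madoi and 33401 Maqu reads over 19 assembled genes. The sum rests mostly on its 2 most abundant genes, at 113.88 and 103.18 RPKM in Madoi and 120.8 and 100.77 in Maqu. Of the 19 genes, 5 were called higher, 4 lower and 10 neither, beside 28.5% higher and 10.7% lower over all assembled genes. The higher ones included 4 read almost only in Madoi, such as one with 693 Madoi and 0 Maqu reads. The most abundant of the lower ones had 828 and 2202 reads, a ratio of -1.30 (-1.42 to -1.19). Acylglycerol lipase, which yields arachidonate from a glycerol lipid in mammalian brain and liver, was called lower, with 473 and 1152 reads and a ratio of -1.17 (-1.33 to -1.02). The phospholipase name covers several enzyme classes that the files do not tell apart by name.

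Prostacyclin synthase, which makes the vessel-widening counterpart of thromboxane, was called lower in Madoi. It had 139 Madoi and 355 Maqu reads over 2 assembled genes, a ratio of -1.24 (-1.54 to -0.96). The gene of 1115 bases stood at -1.35 (-1.68 to -1.04), and that of 467 bases at -0.61 (-1.38 to 0.12), called neither. The summed ratio was further from 0 than thromboxane-A synthase at -0.58 (-0.80 to -0.37). The interval of the 467-base gene overlapped that of thromboxane-A synthase, and whether the enzymes differ was not tested. Carbonyl reductase (NADPH), which can turn prostaglandin E2 into F2, had 1893 Madoi and 0 Maqu reads. All 4 of its assembled genes were at 0 in Maqu, as in the members set apart above. Among them, only the gene of 939 bases, with 374 Madoi reads, carried the ontology term prostaglandin-E2 9-reductase activity. Other genes with ontology terms for this activity were read in Maqu, and enzyme activity itself was not measured. The genes named 15-hydroxyprostaglandin dehydrogenase (NADP) carried the terms carbonyl reductase (NADPH) and prostaglandin-E2 9-reductase activity, and had 8362 Maqu reads.

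In the leukotriene branch, which starts from the same arachidonic acid, 1 of 7 names was called higher and 0 lower, near the 11.6% and 6.33% of all names. Cysteinyl leukotriene receptor 2 had 779 Madoi and 269 Maqu reads, a ratio of 1.64 (1.44 to 1.85). Its sister receptor 1 had 1505 and 2224 reads and a ratio of -0.45 (-0.55 to -0.36), on the other side of 0. Arachidonate 5-lipoxygenase, the first enzyme of the branch, was level with 222 and 215 reads. Leukotriene-A4 hydrolase stood at 0.37 as a sum, and at -0.19 without a copy with 1203 Madoi and 0 Maqu reads.

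The list held 5 names of cytochromes P450 and epoxide hydrolases. Of these, cytochrome P450 of family 2, subfamily J, was called higher with 735 Madoi and 8 Maqu reads, all in 1 gene. Cytochrome P450 of family 4, subfamily F, which degrades leukotriene B4, had 370 Madoi and 798 Maqu reads, just short of the 2-fold line (interval -1.18 to -0.82), and soluble epoxide hydrolase stood at -0.65. Among regulators, nuclear receptor subfamily 1, group C, member 3, for which a breakdown product of prostaglandin D2 is a known ligand in mammals, was called higher with 214 Madoi and 100 Maqu reads. The glucocorticoid receptor, whose hormone restrains cyclooxygenase 2 in mammals, stood at -0.49. Of 7 lipocalin symbols, the family of the secreted D-isomerase, only complement component 8 subunit gamma had an annotation. It was called lower with 2216 and 5203 reads, a ratio of -1.12.

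**Figure D4:**
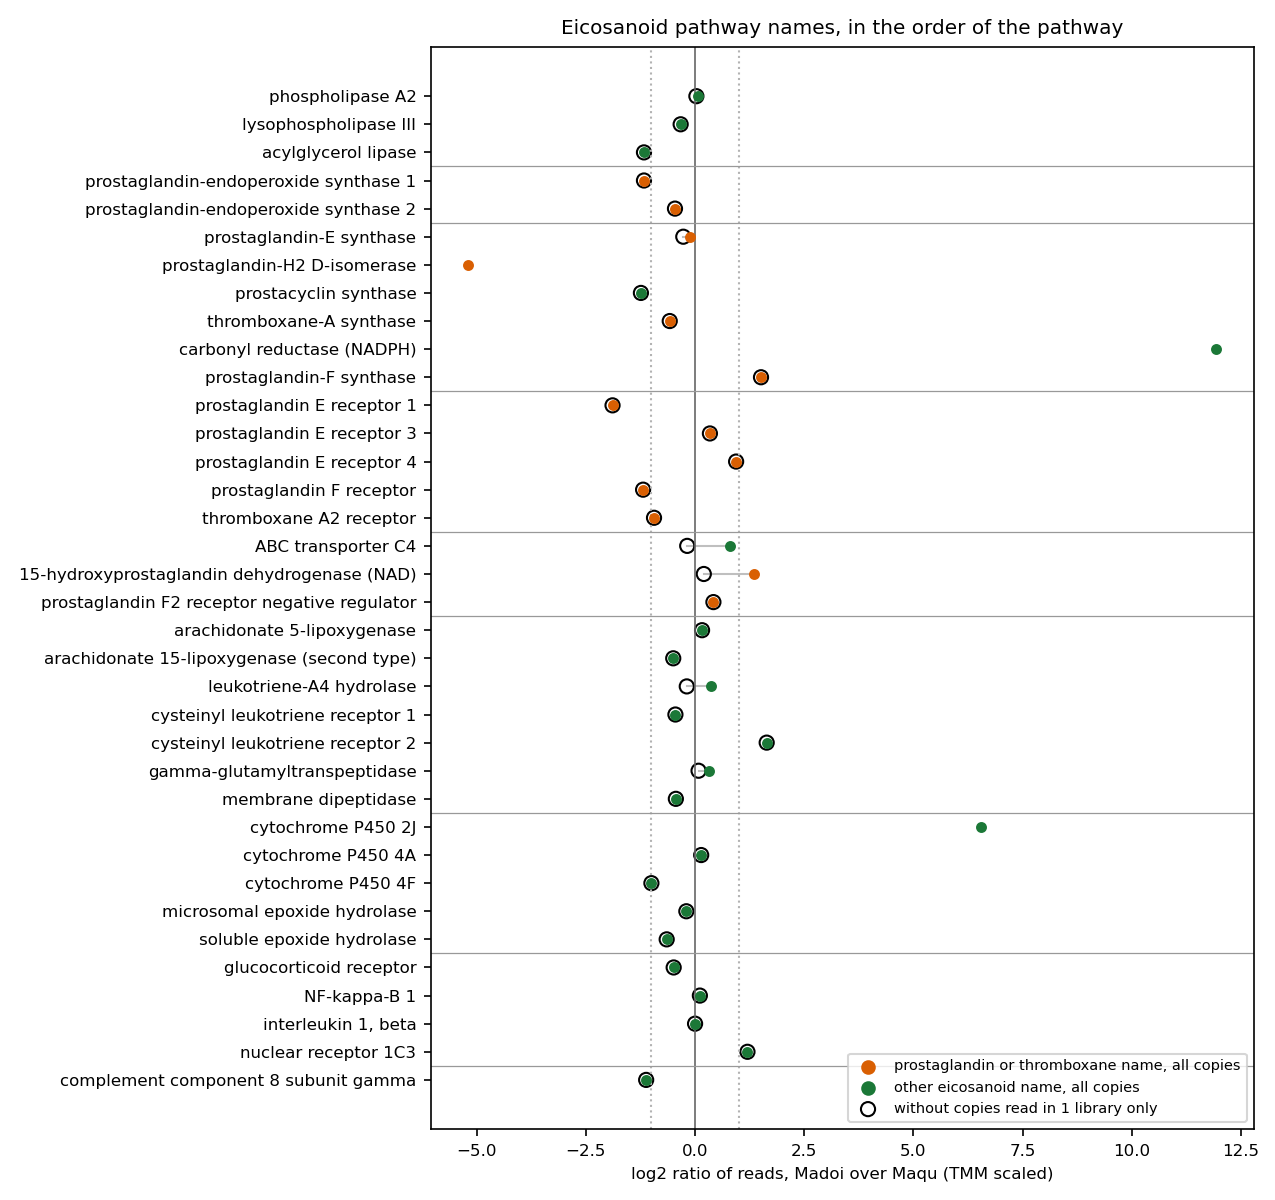
Log2 ratio of reads, Madoi over Maqu, for 36 eicosanoid names in pathway order, from arachidonate release at the top to regulators and a lipocalin at the bottom; filled circles hold all copies and open circles leave out copies read almost only in 1 library. The D-isomerase, carbonyl reductase (NADPH) and cytochrome P450 2J have no open circle, and the reductase at 0 reads in Maqu has a ratio that depends on the pseudocount. The names with an open circle all lie between -1.89 and 1.64 without such copies. The member name 15-hydroxyprostaglandin dehydrogenase (NADP), at 2.04, is not in the list and is not drawn.

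The authors' deposited table marked 5 of the 27 assembled genes as significant, 4 higher and 1 lower in Madoi. Over all assembled genes it marked 10.4%, with 5397 higher and 701 lower in Madoi. The marked members were the D-isomerase, the main NADP-dependent dehydrogenase gene and the 3 genes at 0 in Maqu. In that table the FDR of the marked genes at 0 in Maqu was 0.101 for the NAD-dependent dehydrogenase and 0.438 and 0.428 for the prostaglandin-E synthases. Over the whole of the authors' deposited table the mark coincided with a p-value under 0.05 and an absolute log2 fold change of at least 1 in all 58458 rows. Of its 6098 marked rows, 1395 had an FDR under 0.05.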

How the data were processed

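Per the labels' protocols, total RNA was extracted with a Promega column kit, and libraries followed standard Illumina protocols. The series' design text names Trinity, BLAST and KaKs_Calculator. The sources used here do not give the aligner, counter, versions or test. The deposited expected counts (estimated reads, with decimals) were rounded to whole numbers. The RPKM values of the authors were checked only for assembled genes whose length equals the deposited effective length. For prostaglandin E receptor 3, 1 length shared by both libraries does not give both RPKM values. Which length such genes use was not checked. The log2 fold changes of the authors compare these RPKM values, and the p-values and FDR deposited by the authors compare single libraries. Columns of other samples numbered 0.

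Reads were scaled by TMM (edgeR 4.0.16; factors 0.983 for Madoi and 1.02 for Maqu). Log2 ratios used a pseudocount of 0.5 reads, and intervals are exact Clopper-Pearson at 95%. A count of 0 allows up to 3 reads per library, 0.0444 CPM in Maqu. Reads are not independent molecules. Copies with 1 annotation text were summed. Symbols were matched to annotation texts by hand after the table was opened. Named are all members and the pathway names with at least 50 reads, the latter partly as counts; interleukin 1 beta did not reach this. The members and lists were chosen with earlier results of these data known. The calls were tested on simulated data that held counting error only. The simulation had no spread between animals or pools, so it cannot show how the calls stand up to such spread. DESeq2 1.42.0 size factors, other filters, thresholds and copy choices were tried. Python 3.11.15 with scipy 1.17.1 was used. No sequences are held in the table, and none are printed.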

Additional observations from a re-analysis of the deposited data

How the results depend on the processing

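The log2 ratio of the D-isomerase stayed between -5.23 and -5.18 under other scalings. The median over all names moved from 0.121 to 0.073 with library totals. Of 263 single values recomputed, 240 stayed within their counting interval, 23 left it and 0 called ones changed sign. Some could not move, since a name with 1 copy keeps its value when only its most abundant copy is taken. Values called neither did change sign in places. Leukotriene-A4 hydrolase went from 0.37 to -0.19 without copies read almost only in 1 library. The 4-fold threshold left 2 assembled genes of the family called lower. Of the 36 listed eicosanoid names, which lack the NADP-dependent dehydrogenase, this threshold left 2 higher and 1 lower. Over all names it left 233 higher and 77 lower, and over all assembled genes 2200 lower. Without copies read almost only in 1 library, an alternative chosen after seeing the data, 3 assembled genes of the family, 3 eicosanoid names, 195 of all names and 5723 of all assembled genes were called higher. A filter of 50 reads left 10938 assembled genes higher and 3815 lower. The D-isomerase has no value without such copies, since its only copy is one of them. Depth limits the 6 members with under 50 reads. No paired analysis was possible because each population has 1 library.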

Other observations

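Outside the words prostaglandin and thromboxane in the annotation, 21 assembled genes carried ontology terms that name prostaglandins, prostanoids or thromboxane, and 6 of them had no annotation text. Of the 21, 5 were called higher in Madoi and 3 lower, near the 28.5% and 10.7% of all assembled genes. All 5 higher ones were read almost only in Madoi. The 16 read in both libraries held 0 higher and 3 lower, where 12.1% and 12.5% of all such assembled genes were. Several of the 16 were short genes named ATP-binding cassette, subfamily C, member 4, so the same gene may be counted more than once. Some names, such as prostacyclin synthase and leukotriene-A4 hydrolase, were also in the eicosanoid list above. The term 15-oxoprostaglandin 13-oxidase activity, the step of breakdown after the dehydrogenase, was carried by 3 genes without annotation text. The longest, of 1557 bases, was nearly level with 1087 Madoi and 1023 Maqu reads, a log2 ratio of 0.20 (0.07 to 0.32). The other 2 had 248 and 112 reads in Madoi against 1 and 0 in Maqu. A gene with the term prostaglandin-E synthase activity had 5601 and 4722 reads, a ratio of 0.36 (0.30 to 0.41), above the -0.25 and -0.49 of the prostaglandin-E synthase genes read in both libraries.

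Acyl-CoA oxidase, a peroxisomal enzyme that shortens fatty acids and carries the term prostaglandin metabolic process, was called lower in its long gene, with 5025 Madoi and 11877 Maqu reads and a ratio of -1.13 (-1.18 to -1.08).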
